A study of Drosophila melanogaster with 20 samples.

Results

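Transcripts of 5 genes of the axon, *Ank2*, *Aplip1*, *Appl*, *futsch* and *wnd*, were followed on 20 arrays of eye-antennal imaginal discs of *Drosophila melanogaster*. The 5 genes were chosen by their symbols, out of 11982 genes read, with the differences between these lines already known. They were thus selected on the values given here, and their values are a description with no test. Where arrays of a member are said not to overlap those of other lines, the share of all genes that do so is not given. Nothing is read from such separations. A probe set counted for a gene when the array annotation named only that gene, which gave 11 probe sets of 18769. The perturbed discs were 3 samples of Gal4/7 x UASato and 3 of atoGal4 x UASato, which overexpress the transcription factor (TF) Atonal and together form Ato GOF, 3 samples of the line labelled ato-/- (Ato LOF), and 3 of atoGal4 x UASsens (Sens GOF), which overexpress the TF Senseless. The 8 controls were 2 samples each of the driver lines Gal4/7 and atoGal4, of UASato and of the wild type cantonS. No UASsens line without a driver was among the controls. All lines grew at 18 °C, and a shift to 28 °C early in the third instar covered 24 hours before dissection. The ato-/- larvae came from a stock with a mutant *ato* allele over a chromosome that carries the cell death gene *hid* under a heat-shock promoter, and this stock alone is stated to have been heat-shocked, on 3 days, so that the effect of the mutation and of the heat shock cannot be told apart. The samples of a line were biological repeats. Discs were measured in bulk, so that fewer cells of a type and less RNA per cell cannot be told apart.

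Axons are kept up by a cytoskeleton of microtubules, actin and spectrin, and by motors that carry vesicles and organelles along the microtubules. The products of the 5 genes belong to this machinery. Ank2 is an ankyrin, which ties membrane proteins to the spectrin skeleton. Futsch is the fly relative of the microtubule associated protein MAP1B. Appl is the fly amyloid precursor protein, a neuronal transmembrane protein that is carried along the axon. Aplip1, the relative of the mammalian scaffold JIP1, binds kinesin light chain and kinases of the JNK pathway. The kinase Wallenda, encoded by *wnd*, is the fly DLK, which starts JNK signaling in axons and is held low by the ubiquitin ligase Highwire. In the eye disc, Atonal selects the R8 photoreceptor precursor and Senseless acts after it, and photoreceptors send their axons toward the brain during the last larval stage.

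Values are log2 RMA values, on which a difference of 1 is a 2-fold change, and array medians lay between 5.38 and 5.51. The *ato* transcript averaged 12.44 ± 0.20 in Gal4/7 x UASato and 11.44 ± 0.17 in atoGal4 x UASato (SD, n = 3 each), and the 4 control lines averaged between 9.59 and 9.83. It averaged 10.18 ± 0.18 in ato-/- (SD, n = 3), which does not check the mutation, since the position of the probes relative to it is not given in the sources used here. The *sens* transcript averaged 12.01 ± 0.28 in atoGal4 x UASsens (SD, n = 3), against line means of 8.26 to 8.56 in the controls. Gal4/7 replicate 2 stood apart, with a highest correlation to any array of 0.968, against at least 0.984 for the other 19. Replicates 1 and 2 of atoGal4 x UASsens were closer to each other than any other replicates of a line (SD of their difference 0.149, against 0.325 to 0.759 in the other 15 pairs). For the brightest probe sets of the 5 genes and of the gene lists below, Sens GOF calls are therefore also given with their mean as 1 sample. Markers, values set against *elav*, comparisons with atoGal4 alone and further probe sets are given only with both as separate samples. Of the 7 eye disc markers, 6 averaged lower in ato-/- than in the controls. Among these, *ro* read 4.56 to 4.72 in ato-/-, below the array medians, against at least 7.03 in the controls. The other 1, *ey*, averaged higher, at 9.61 to 9.76 in ato-/- against 8.82 to 9.70 in the controls. The salivary gland genes *Sgs3*, *Sgs5* and *Sgs7* summed to between 154 and 60781 on the linear scale in Gal4/7 x UASato and between 274 and 59085 in the controls.

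*Ank2* was highest in Gal4/7 x UASato and lowest in ato-/-. Its brightest probe set read 10.66, 10.88 and 10.73 in Gal4/7 x UASato, 10.15, 10.19 and 10.28 in atoGal4 x UASato, 8.09, 6.92 and 8.94 in ato-/-, and 9.62, 9.67 and 9.92 in atoGal4 x UASsens. The controls read 9.63 and 9.45 in Gal4/7, 9.67 and 9.48 in atoGal4, 9.85 and 9.64 in UASato, and 9.25 and 9.77 in cantonS. All 6 Ato GOF arrays lay above, and all 3 ato-/- arrays below, each of the 8 control arrays, and the Sens GOF arrays overlapped the controls. The 2 Ato GOF lines did not overlap each other or any other line, while UASato, atoGal4 x UASsens, atoGal4, Gal4/7 and cantonS, in this order of their means, each overlapped the next.

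*futsch* differed most between the drivers. It read 9.80, 10.19 and 9.49 in Gal4/7 x UASato, 8.90, 8.77 and 9.02 in atoGal4 x UASato, 7.30, 6.49 and 7.33 in ato-/-, and 8.79, 8.92 and 8.49 in atoGal4 x UASsens. The controls read 8.44 and 8.45 in Gal4/7, 8.60 and 9.06 in atoGal4, 8.54 and 8.72 in UASato, and 8.36 and 8.46 in cantonS. Every Gal4/7 x UASato array lay above every control array, whereas the atoGal4 x UASato arrays lay inside the range of the atoGal4 driver line. The ato-/- arrays were again below all controls.

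*Appl* read 10.81, 11.12 and 11.01 in Gal4/7 x UASato, 11.01, 11.16 and 11.05 in atoGal4 x UASato, 8.23, 6.87 and 8.99 in ato-/-, and 10.25, 10.32 and 10.45 in atoGal4 x UASsens. The controls read 10.10 and 10.25 in Gal4/7, 10.68 and 10.95 in atoGal4, 10.24 and 10.41 in UASato, and 10.52 and 11.05 in cantonS. The control lines were themselves spread between 10.10 and 11.05, cantonS replicate 2 reached into the Ato GOF range, and only ato-/- stood clear of the controls.

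*Aplip1* read 9.06, 8.84 and 8.55 in Gal4/7 x UASato, 8.37, 8.34 and 8.24 in atoGal4 x UASato, 6.48, 5.58 and 7.15 in ato-/-, and 7.21, 7.62 and 7.60 in atoGal4 x UASsens. The controls read 7.97 and 7.80 in Gal4/7, 7.92 and 7.99 in atoGal4, 7.64 and 7.41 in UASato, and 7.67 and 8.06 in cantonS. As for *Ank2*, the Ato GOF arrays were all above and the ato-/- arrays all below the controls, and the drivers did not overlap.

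*wnd* followed another pattern. It read 9.56, 9.62 and 9.62 in Gal4/7 x UASato, 10.36, 10.30 and 10.39 in atoGal4 x UASato, 8.41, 8.18 and 8.22 in ato-/-, and 10.11, 10.06 and 10.03 in atoGal4 x UASsens. The controls read 8.33 and 8.54 in Gal4/7, 10.28 and 10.56 in atoGal4, 10.34 and 10.40 in UASato, and 8.44 and 8.76 in cantonS. The controls fell into high lines (atoGal4 and UASato) and low lines (Gal4/7 and cantonS) with no control array between 8.76 and 10.28. Gal4/7 x UASato and atoGal4 x UASsens lay in this gap, atoGal4 x UASato among the high lines, and 2 of the 3 ato-/- arrays below every control. Neighbors in the order of the means overlapped among atoGal4, UASato and atoGal4 x UASato, and among cantonS, Gal4/7 and ato-/-.

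**Figure D1:**
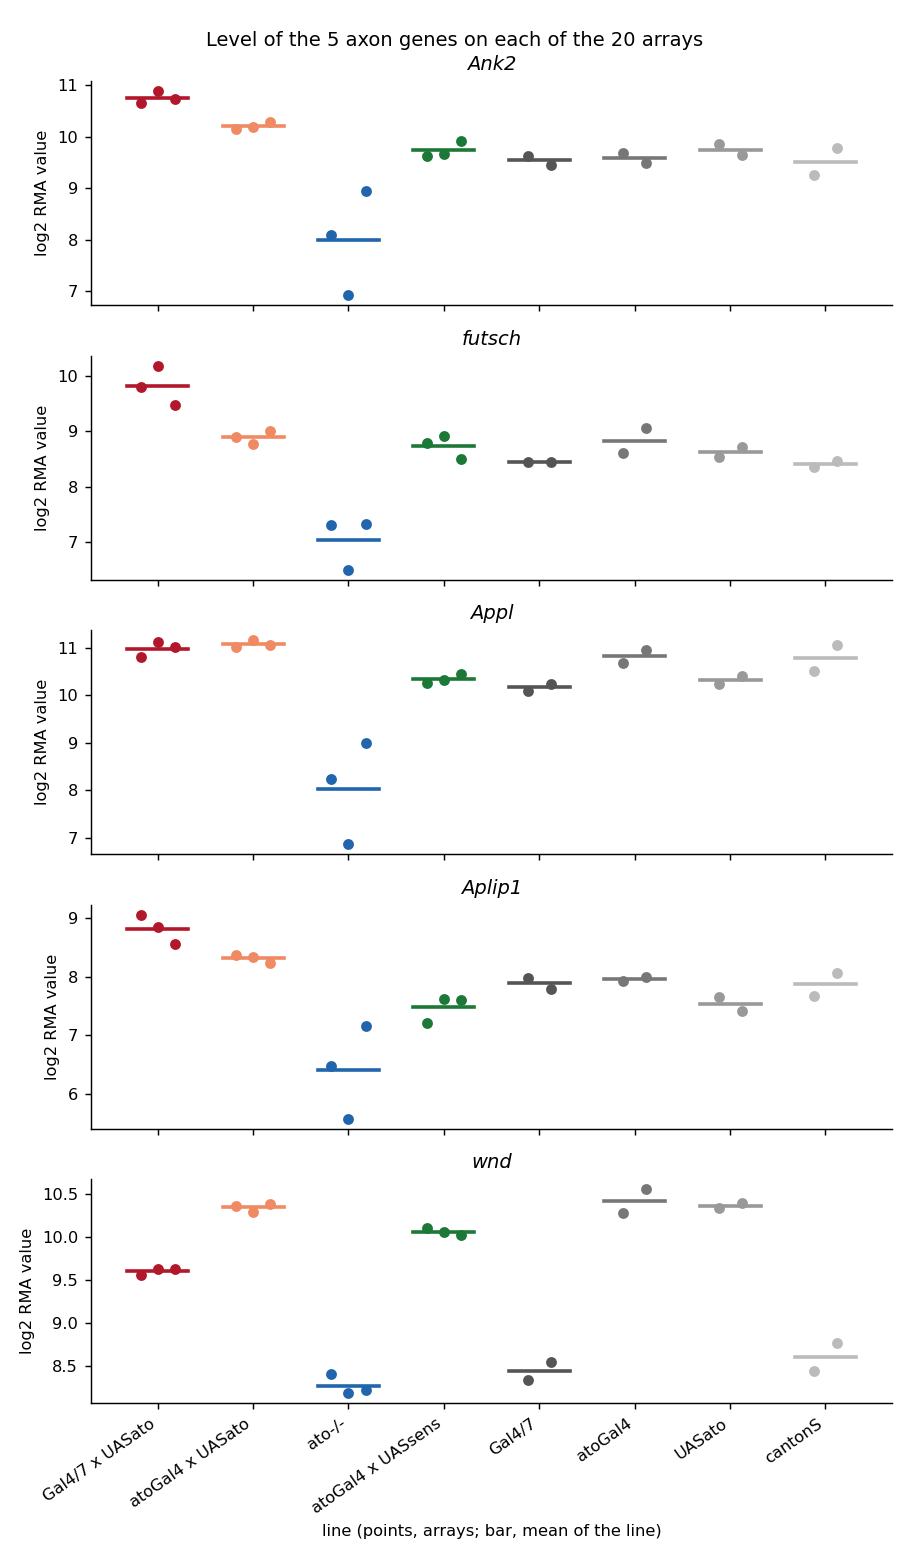
Log2 RMA value of each of the 5 genes (brightest probe set, 1 panel per gene) on all 20 arrays, by line; points are arrays and bars are line means. *Ank2*, *futsch* and *Aplip1* are highest in Gal4/7 x UASato, 4 genes are clear of the controls in ato-/-, and *wnd* splits the control lines into a high and a low pair.

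Set against the 8 controls together, Ato GOF averaged higher for all 5 genes. *Ank2* averaged 10.48 ± 0.31 in Ato GOF (SD, n = 6) and 9.59 ± 0.19 in the controls (SD, n = 8), a log2 difference of 0.89 ± 0.13 (SE), or 1.85-fold. The differences were 0.78 ± 0.20 for *futsch*, 0.76 ± 0.14 for *Aplip1*, 0.52 ± 0.41 for *wnd* and 0.50 ± 0.14 for *Appl* (log2, SE). The member median was 0.76, beside 0.01 for all genes read. A gene was called when its p, from limma and adjusted by Benjamini-Hochberg over all 18769 probe sets, was under 0.05. Of the 5 genes, *Ank2* and *Aplip1* were called higher and none lower, beside 0.943% of all genes called higher and 0.284% called lower, and nothing is read from this count, since the genes were selected on such differences. The call of *Aplip1* was lost without Gal4/7 x UASato replicate 2.

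By driver, Gal4/7 x UASato stood farther from the 8 controls than atoGal4 x UASato for 3 genes. The log2 differences with Gal4/7 were 1.25 ± 0.16 for *futsch*, 1.16 ± 0.12 for *Ank2* and 1.01 ± 0.15 for *Aplip1* (SE), which are 2.37-fold, 2.24-fold and 2.01-fold, and 0.46 ± 0.20 for *Appl* and 0.15 ± 0.55 for *wnd*. With atoGal4 they were 0.31 ± 0.13 for *futsch*, 0.61 ± 0.11 for *Ank2*, 0.51 ± 0.13 for *Aplip1*, 0.55 ± 0.19 for *Appl* and 0.89 ± 0.55 for *wnd* (SE). These comparisons share their control arrays. With Gal4/7, 3 of the 5 genes (*Ank2*, *Aplip1* and *futsch*) were called higher, beside 1.96% of all genes higher and 0.526% lower. With atoGal4 none was called, beside 0.0835% of all genes higher and 0.00835% lower.

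Compared with each other, the Ato GOF lines differed most in *futsch*, which was higher in Gal4/7 x UASato than in atoGal4 x UASato by 0.93 ± 0.18 (log2, SE). *Ank2* was higher by 0.55 ± 0.09 and *Aplip1* by 0.50 ± 0.13, with no overlap of the 3 arrays of each line, and *Appl* differed by -0.09 ± 0.10, with overlap. *wnd* was lower by 0.75 ± 0.07 in Gal4/7 x UASato. Beside 0.643% of all genes called higher and 0.451% called lower, *Ank2* was called higher and *wnd* lower. Neither call survived the removal of every array: that of *Ank2* remained only without Gal4/7 x UASato replicate 1, and that of *wnd* was lost without atoGal4 x UASato replicate 1 and without Gal4/7 x UASato replicates 2 or 3.

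**Figure D2:**
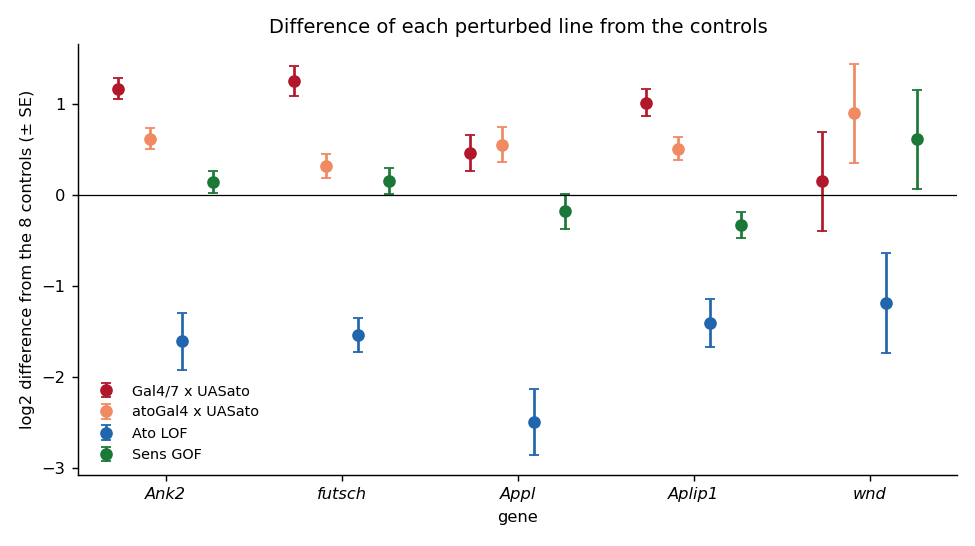
Log2 difference of each perturbed line from the 8 controls for the 5 genes; points are the fitted differences and bars are SE. The Ato LOF differences run from -2.49 for *Appl* to -1.19 for *wnd*, and the SE of *wnd*, 0.54 to 0.55, is the widest of the 5 genes in each comparison.

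Each cross can also be set beside its own parents, the driver line and UASato. For *Ank2*, *Aplip1* and *Appl*, all 3 arrays of both crosses lay above every array of both parents. Gal4/7 x UASato exceeded the mean of its parents (taken on the linear scale) by 1.11 for *Ank2*, 1.10 for *Aplip1* and 0.73 for *Appl* (log2), and atoGal4 x UASato exceeded its own by 0.55, 0.56 and 0.48. For *futsch* the excess was 1.28 in Gal4/7 x UASato, again above every parent array, and 0.16 in atoGal4 x UASato, within the range of the parents. *wnd* lay near the parental mean in both crosses, at -0.10 in Gal4/7 x UASato, whose parents stood at 8.43 (Gal4/7) and 10.37 (UASato), and at -0.04 in atoGal4 x UASato, whose parents stood at 10.42 and 10.37. The Gal4/7 x UASato arrays of *wnd* spanned only 9.56 to 9.62, so that this cross was 1.17 above its driver and 0.77 below UASato, and its difference from the pooled controls depended on which lines were pooled. Against the driver and UASato alone, the difference of *wnd* was 0.20 ± 0.57 in Gal4/7 x UASato and -0.04 ± 0.09 in atoGal4 x UASato (log2, SE), where atoGal4 x UASato stood at 0.89 against all 8 controls. Against these nearest controls *Appl* in Gal4/7 x UASato, at 0.74 ± 0.11, was also called higher.

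**Figure D3:**
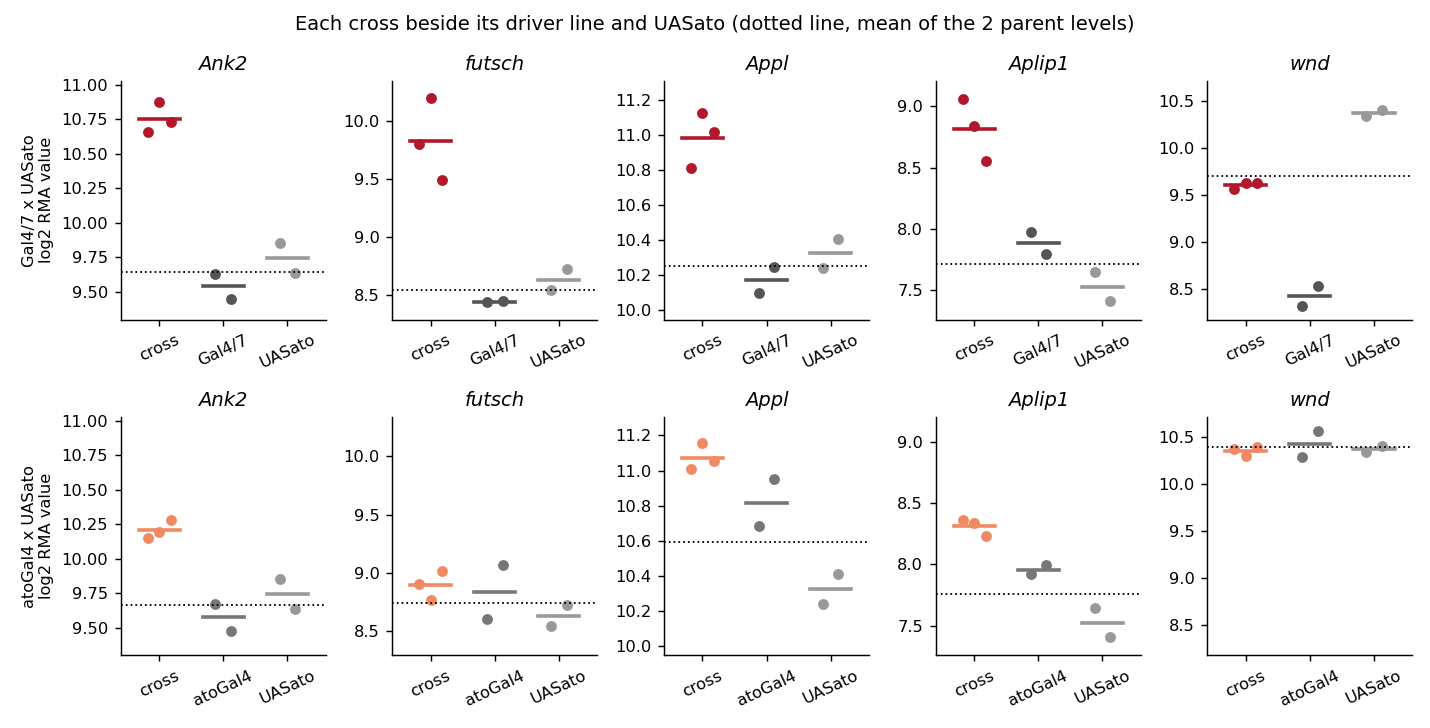
Log2 RMA value of the 5 genes in each Ato GOF cross (left), its driver line and UASato; points are arrays, bars are line means and the dotted line is the mean of both parents on the linear scale. *Ank2*, *Aplip1* and *Appl* lie above both parents in both crosses, *futsch* only in Gal4/7 x UASato, and *wnd* lies near the dotted line in both.

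As the change of each cross from its own driver line, the 5 genes moved by 1.22 (*Ank2*), 0.93 (*Aplip1*), 0.81 (*Appl*), 1.38 (*futsch*) and 1.17 (*wnd*) with Gal4/7, and by 0.63, 0.36, 0.26, 0.06 and -0.07 in the same order with atoGal4 (log2). The change with Gal4/7 was thus the larger for every member, by between 0.56 ± 0.17 for *Appl* and 1.32 ± 0.29 for *futsch* (SE). The driver lines themselves differed, at 10.17 (Gal4/7) and 10.82 (atoGal4) for *Appl* and at 8.43 and 10.42 for *wnd*. Both crosses share UASato, so changes taken from UASato only repeat the direct difference between the crosses given above. There the change with Gal4/7 was higher than with atoGal4 for *Ank2*, *Aplip1* and *futsch*. It was lower than with atoGal4 for *Appl* (0.66 against 0.75) and for *wnd* (-0.77 against -0.02). The *ato* transcript was higher with Gal4/7 than with atoGal4, and its part in the driver differences was not tested. These values were computed after the differences between the drivers had been seen.

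In ato-/- discs, *Appl*, *Ank2*, *futsch* and *Aplip1* lay below every control array, and the share of all genes that did so is not given. *Appl* averaged 8.03 ± 1.07 in ato-/- (SD, n = 3) and 10.52 ± 0.35 in the controls (SD, n = 8), a log2 difference of -2.49 ± 0.36 (SE), or 5.64-fold lower. The differences were -1.61 ± 0.31 for *Ank2* (3.05-fold lower), -1.54 ± 0.19 for *futsch* (2.91-fold lower) and -1.41 ± 0.26 for *Aplip1* (2.65-fold lower). *wnd* differed by -1.19 ± 0.55 from the 8 controls and by -0.33 ± 0.14 from cantonS alone, whose level is nearer to its own. These 4 genes other than *wnd* were called lower and none higher, beside 10.1% of all genes called lower and 6.34% called higher, and the member median was -1.54 against -0.02 for all genes read. With the 2 cantonS arrays as the only controls, none of the 5 genes was called, while the differences stayed between -2.76 (*Appl*) and -1.37 (*futsch*) for these 4.

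The ato-/- arrays differed among themselves. Replicate 2 was the lowest and replicate 3 the highest of the 3 for *Ank2*, *Aplip1*, *Appl* and *futsch*, and the difference of *Ank2* was -1.08 ± 0.20 without replicate 2 (SE). The neuronal gene *elav* showed the same order, at 8.69, 8.18 and 8.99 in ato-/- replicates 1, 2 and 3. So did the 5 markers of central nervous system neurons and neuroblasts, whose summed linear level was 502, 329 and 864 in these replicates, against 135 to 455 in the controls. All 5 averaged higher in ato-/-, with a median log2 difference of 0.46, and 1 (*Gad1*) was called higher. The part of such tissue in these levels was not tested. Over the 4 measured pan-neuronal markers (*elav*, *fne*, *nSyb* and *brp*), the summed linear level was 586 to 1341 in ato-/-, against 1613 to 2162 in the controls, and 3 of the 4 were called lower. The corresponding sums were 1923 to 2619 in Gal4/7 x UASato, where 1 of the 4 (*nSyb*) was called higher, 1978 to 2961 in atoGal4 x UASato, where none was, and 1353 to 1765 in atoGal4 x UASsens, where 2 of the 4 (*elav* and *brp*) were called lower. The part of the neuron number in the levels of the 5 genes was not tested. Set against *elav* within each array, *Ank2* stood at 0.21 ± 0.30 in Gal4/7 x UASato, at -0.49 ± 0.23 in atoGal4 x UASato, at -0.63 ± 0.60 in ato-/- (SD, n = 3 each) and at -0.66 ± 0.19 in the controls (SD, n = 8). *futsch* minus *elav* was likewise higher in Gal4/7 x UASato, at -0.72 ± 0.30, than in the controls, at -1.67 ± 0.26, and was -1.58 ± 0.16 in ato-/-, inside the control range of -1.92 to -1.16. In atoGal4 x UASsens, where *elav* itself was called lower, *Ank2* minus *elav* was -0.04 ± 0.14 and *futsch* minus *elav* -1.04 ± 0.23 (SD, n = 3). For the brightest probe set of *Ank2* the 3 arrays lay above all 8 controls. The other *Ank2* probe sets were not set against *elav*. Before any such step, 1640337_a_at and 1631662_a_at differed in Sens GOF from the controls by -0.30 ± 0.13 and -0.38 ± 0.20 (log2, SE). *Appl* minus *elav* was -0.59 ± 0.66 in ato-/- and 0.27 ± 0.41 in the controls. It was 0.44 ± 0.37 in Gal4/7 x UASato and 0.38 ± 0.18 in atoGal4 x UASato, inside the control range of -0.26 to 0.93. *futsch* minus *elav* was -1.80 ± 0.28 in atoGal4 x UASato. *Aplip1* minus *elav* was -1.73 ± 0.01 in Gal4/7 x UASato, -2.38 ± 0.10 in atoGal4 x UASato and -2.45 ± 0.29 in the controls. For *wnd* minus *elav* the controls alone spanned -2.03 to 0.34.

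In Gal4/7 x UASato, 2 of the 3 hemocyte markers were also called higher, and their summed linear level was 1937 to 3624, against 667 to 1339 in the controls. In atoGal4 x UASato the same sum was 845 to 920. The part of hemocytes in the driver difference was not tested. The eye disc markers summed to 8750 to 9693 in Gal4/7 x UASato, 8112 to 9320 in atoGal4 x UASato, 2469 to 2901 in ato-/- and 5562 to 6225 in atoGal4 x UASsens, against 6368 to 8795 in the controls. The 7 genes did not move alike in Gal4/7 x UASato, where *chp* was called higher and *so* and *sev* lower, with a median log2 difference of -0.05. *sev*, a receptor gene of the R7 photoreceptor precursor, read 5.91 to 6.37 in Gal4/7 x UASato and 5.61 to 5.94 in ato-/-, against 7.67 to 8.61 in the controls.

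In Sens GOF none of the 5 genes, read from its brightest probe set, stood clear of the controls. The log2 differences of Sens GOF from the 8 controls were 0.14 ± 0.12 for *Ank2*, 0.15 ± 0.14 for *futsch*, -0.18 ± 0.19 for *Appl*, -0.33 ± 0.14 for *Aplip1* and 0.61 ± 0.54 for *wnd* (SE), and the arrays overlapped the controls for each. With replicates 1 and 2 averaged as 1 sample they were 0.19 ± 0.15, 0.09 ± 0.17, -0.16 ± 0.24, -0.30 ± 0.16 and 0.60 ± 0.67 in the same order. None was called, beside 1.7% of all genes called higher and 2.21% called lower. Against the atoGal4 driver alone, *wnd* was at -0.35 ± 0.12 and *futsch* at -0.10 ± 0.19, with the sign turned from that against the 8 controls. The Sens GOF arrays of *Appl*, *Aplip1* and *wnd* lay below both atoGal4 arrays, and those of *Ank2* and *futsch* overlapped them. *Appl* read 10.25 to 10.45 in Sens GOF, against 10.68 and 10.95 in atoGal4, and *Aplip1* 7.21 to 7.62, against 7.92 and 7.99. None of the 5 genes was called against atoGal4 alone.

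Since atoGal4 drives both TFs, Sens GOF can be set against atoGal4 x UASato directly. *Aplip1* was lower in Sens GOF by 0.84 ± 0.13, *Appl* by 0.73 ± 0.09, *Ank2* by 0.47 ± 0.10 and *wnd* by 0.28 ± 0.07 (log2, SE), each with no overlap of the arrays, and *futsch* differed by -0.16 ± 0.13, with overlap. Read from the brightest probe sets, *Aplip1* and *Appl* were called lower and none higher, beside 3.74% of all genes called lower and 2.12% called higher. With replicates 1 and 2 of Sens GOF averaged, the differences were -0.81 ± 0.10 for *Aplip1* and -0.70 ± 0.10 for *Appl*, and neither was called. Both calls were also lost without Sens GOF replicate 1 or 2, and that of *Aplip1* without any 1 of the atoGal4 x UASato replicates.

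*Ank2* and *futsch* have further probe sets. The second probe set of *Ank2* (1640337_a_at) gave log2 differences of 0.70 ± 0.10 in Ato GOF and -2.08 ± 0.33 in ato-/-, and the third (1631662_a_at) gave 0.67 ± 0.16 and -1.69 ± 0.22 (SE). In Sens GOF they gave -0.30 ± 0.13 and -0.38 ± 0.20, opposite in sign to the 0.14 ± 0.12 of the brightest. The dimmest *Ank2* probe sets, 1623451_at and 1634770_at, averaged 5.81 and 5.06 over the 20 arrays, near the array medians, and differed by 0.12 ± 0.08 and 0.32 ± 0.10 in Ato GOF. In ato-/- they differed by -0.08 ± 0.10 and -0.57 ± 0.13 (SE). Of these, 1634770_at lay below every control array in ato-/- and was called lower. For *futsch*, 1634163_at averaged 5.24 over the 20 arrays and gave 0.45 ± 0.12 in Ato GOF and -0.10 ± 0.13 in ato-/-, and 1624600_at averaged 4.65 and gave 0.03 ± 0.07 and -0.22 ± 0.10. In Sens GOF these *futsch* probe sets gave -0.11 ± 0.12 and -0.49 ± 0.10 (SE), opposite in sign to the 0.15 ± 0.14 of the brightest. The dimmer of them, 1624600_at, read 4.14 to 4.33 in Sens GOF, against 4.51 to 4.97 in the controls, with no overlap, and was called lower. In Sens GOF against atoGal4 x UASato, *Ank2* 1640337_a_at (-0.82 ± 0.14) and *futsch* 1624600_at (-0.45 ± 0.09) were called lower (SE). *Ank2* 1631662_a_at stood at -0.83 ± 0.19 in this comparison, and neither it nor the remaining further probe sets were called. These Sens GOF calls of further probe sets are not given with replicates 1 and 2 averaged. The probe sets of a gene thus did not move alike. Those near the array medians moved least in ato-/-, though *Ank2* 1634770_at among them was called lower there.

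The genes whose levels followed each member most closely over the 20 arrays were read by Pearson correlation, as a description, since arrays of a line are not independent and all of them share the split between perturbed and control lines. *Ank2* was most like *Schip1* (r = 0.977), *CG13532* (r = 0.976) and *loaf* (r = 0.973), and *Aplip1* most like *CG3556* (r = 0.960), *loaf* (r = 0.959) and *CG4133* (r = 0.955). *Schip1* averaged 8.81 ± 0.19 in Gal4/7 x UASato, 8.14 ± 0.08 in atoGal4 x UASato, 5.96 ± 0.73 in ato-/- (SD, n = 3 each) and between 7.61 and 7.91 in the control lines. *Appl* was most like *E(spl)malpha-BFM* (r = 0.973), which belongs to the Enhancer of split complex of Notch targets, *Ror* (r = 0.966), a receptor tyrosine kinase gene, and *DAAM* (r = 0.964), a formin gene. *futsch* was most like *Lim3* (r = 0.954), a LIM homeobox TF gene of neurons, *gogo* (r = 0.947), which guides photoreceptor axons, and *SP2353* (r = 0.944). *gogo* averaged 11.21 ± 0.22 in Gal4/7 x UASato, 9.98 ± 0.17 in atoGal4 x UASato and 7.07 ± 1.24 in ato-/- (SD, n = 3 each), and between 9.26 and 9.76 in the control lines. *wnd* was most like *hng3* (r = 0.971), *CG6654* (r = 0.904) and *CG12880* (r = 0.868). *hng3* averaged 9.01 ± 0.12 in Gal4/7 x UASato, 9.88 ± 0.09 in atoGal4 x UASato and 7.64 ± 0.12 in ato-/- (SD, n = 3 each), with 9.91 in atoGal4 and 9.45 in UASato, against 7.75 in Gal4/7 and 7.91 in cantonS. Between members, r was 0.871 to 0.945 for the pairs among *Ank2*, *Aplip1*, *Appl* and *futsch*, and 0.437 to 0.618 for the pairs with *wnd*.

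Beside the 5 genes, 53 other genes of the axonal machinery were listed in 5 groups, and 44 of them were measured. The lists were chosen with earlier results of these data known. Their counts and p are thus a description, and no enrichment of a list is read from them. In Ato GOF, 2 of the 44 rose and none fell, with a median log2 difference of 0.11, beside 0.943% of all genes called higher and 0.284% called lower. The kinesin-3 gene *unc-104*, which encodes the motor of synaptic vesicle precursors, was the only 1 of 13 motor and adaptor genes that rose, and averaged 9.94 ± 0.17 in Ato GOF (SD, n = 6) and 9.25 ± 0.22 in the controls (SD, n = 8), a log2 difference of 0.69 ± 0.11 (SE, limma adjusted p = 0.00635). *X11Lbeta*, a relative of the mammalian X11 adaptors that bind the amyloid precursor protein, was the only 1 of 6 genes of APP processing and binding that rose, with 9.20 ± 0.27 in Ato GOF (SD, n = 6) and 8.48 ± 0.25 in the controls (SD, n = 8), a difference of 0.71 ± 0.13 (SE, limma adjusted p = 0.0205). Both genes stand on the list of Ato GOF genes that the study drew from these arrays by joining sets from several normalization methods and filters. That list also holds *Ank2*, *Aplip1*, and the listed genes *Klc* and *hts*, which were not called here in Ato GOF. The call of *X11Lbeta* was lost without any 1 of the Gal4/7 x UASato replicates, and without cantonS.

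None of the 10 genes of DLK and JNK signaling passed in Ato GOF, and the brightest of them, the JNK gene *bsk*, stood at 0.11 ± 0.06 (log2, SE). None passed among the 9 genes of microtubule binding proteins, of which *Map205* was the brightest at 0.04 ± 0.06, or among the 6 of the ankyrin and spectrin skeleton, where *alpha-Spec* stood at 0.10 ± 0.09. With Gal4/7 the same 2 genes rose, *unc-104* by 0.83 ± 0.13 (SE, limma adjusted p = 0.00566) and *X11Lbeta* by 0.92 ± 0.15 (SE, limma adjusted p = 0.00772). The call of *X11Lbeta* with Gal4/7 was lost with the nearest controls and without Gal4/7 x UASato replicate 2 or 3. With atoGal4 none of the 44 passed in limma, 6 having an unadjusted p under 0.05. Between the drivers none of the 44 passed either, and 6 had an unadjusted p under 0.05.

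In ato-/-, 23 of the 44 genes fell and none rose, with a median log2 difference of -0.35. Of the 9 microtubule binding genes 8 fell, led by *tau*, which averaged 6.18 ± 0.72 in ato-/- (SD, n = 3) and 8.26 ± 0.55 in the controls (SD, n = 8), a difference of -2.08 ± 0.36 (SE, limma adjusted p = 0.00373), and by *Patronin*, which protects microtubule minus ends, at -0.72 ± 0.12 (SE, limma adjusted p = 0.00245). In APP processing and binding, 4 of 6 fell, with *X11Lbeta* at 5.70 ± 0.83 in ato-/- (SD, n = 3) against 8.48 ± 0.25 in the controls (SD, n = 8), a difference of -2.79 ± 0.28 (SE, limma adjusted p = 0.000154), and *kuz*, an ADAM protease gene, at -0.80 ± 0.19 (SE, limma adjusted p = 0.0173). Of the 13 motor and adaptor genes 4 fell, among them *unc-104* by 1.07 ± 0.20 (log2, SE, limma adjusted p = 0.00523) and the dynactin gene *DCTN1-p150* by 0.43 ± 0.10 (log2, SE, limma adjusted p = 0.0202).

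In DLK and JNK signaling 4 of 10 fell. *hiw*, which encodes the ligase that holds Wallenda low, differed by -1.01 ± 0.22 (SE, limma adjusted p = 0.0132) and the kinase gene *msn* by -0.55 ± 0.15 (SE, limma adjusted p = 0.0339). In the ankyrin and spectrin skeleton 3 of 6 fell, with the adducin gene *hts* at -1.36 ± 0.30 (SE, limma adjusted p = 0.0125) and *Ank*, the other ankyrin gene of the fly, at -0.46 ± 0.08 (SE, limma adjusted p = 0.00447). Of all genes read, 1207 were lower in ato-/-, and nothing particular to these lists is read from the counts. With cantonS as the only control 1 of the 44 was called, and without ato-/- replicate 1 or replicate 2 the counts were 11 and 12.

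**Figure D4:**
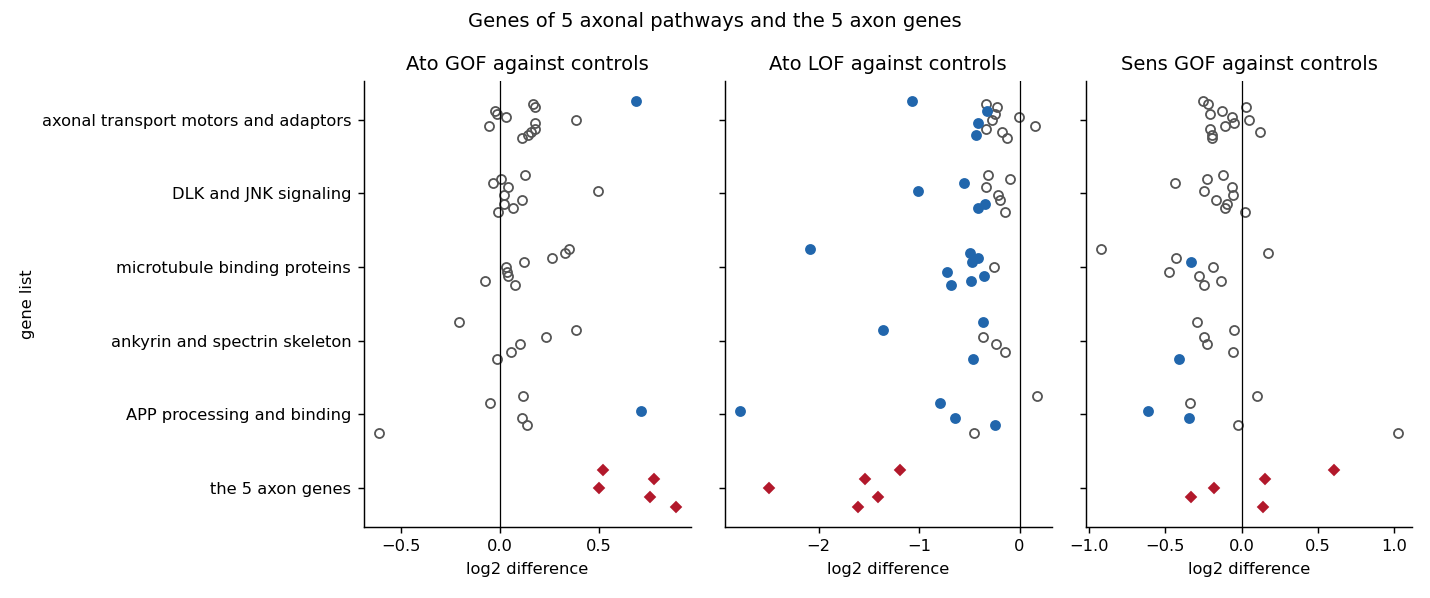
Log2 difference from the 8 controls of the 44 listed genes, by list, and of the 5 axon genes (diamonds) in Ato GOF, Ato LOF and Sens GOF; filled circles are listed genes called at an adjusted p under 0.05. *unc-104* and *X11Lbeta* are the filled circles in Ato GOF, and 23 genes are filled in Ato LOF, all below 0.

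In Sens GOF, 4 of the 44 genes were lower than in the controls and none higher, with a median log2 difference of -0.19. Of all genes, 2.21% were called lower and 1.7% higher. The 4 genes were *X11Lbeta* at -0.61 ± 0.14 (SE, limma adjusted p = 0.0395), *X11L* at -0.34 ± 0.08 (SE, limma adjusted p = 0.0479), the spectraplakin gene *shot* at -0.33 ± 0.06 (SE, limma adjusted p = 0.0189) and *Ank* at -0.41 ± 0.10 (SE, limma adjusted p = 0.0474). None of the 4 was called without any 1 of the Sens GOF replicates or with replicates 1 and 2 averaged. Against atoGal4 x UASato, 6 genes were lower in Sens GOF, beside 3.74% of all genes called lower and 2.12% called higher. Among the 6 were *X11Lbeta* at -1.12 ± 0.10 (SE, limma adjusted p = 0.0065), *tau* at -0.93 ± 0.12 (SE, limma adjusted p = 0.0137) and *unc-104* at -0.80 ± 0.12 (SE, limma adjusted p = 0.0193), followed by *spas*, a microtubule severing ATPase gene, at -0.55 ± 0.09, *msn* at -0.48 ± 0.09 and *beta-Spec* at -0.40 ± 0.07 (SE). With replicates 1 and 2 of Sens GOF averaged, only *X11Lbeta* of these 6 was still called. Without atoGal4 x UASato replicate 1 and without Sens GOF replicate 1 or 2 the count was also 1, and without Sens GOF replicate 3 it was 12.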

How the data were processed

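RNA of eye-antennal imaginal discs was hybridised to Affymetrix Drosophila Genome 2.0 arrays, 1 array per sample. The values used were the deposited log2 values that the authors made with RMA (background correction, quantile normalization and summary of the probes of a set); the version is not given in the sources used here. RMA forces the arrays to 1 distribution, so a shift shared by most genes would not be seen. Values made by other methods were not analysed here. Of 18952 probe sets, 18769 entered the tests after removal of 183 spike-in and other Affymetrix control sets. The platform annotation named 1 gene for 13647 probe sets, several for 402 and none for 4720, and 11982 genes were read from their brightest probe set. Samples were grouped by the labels, and replicate numbers were read from the titles, since the replicate field differs from them in some controls.

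Groups were compared with limma 3.58.1 in R 4.3.3 (lmFit and eBayes, only the arrays of the groups compared, no covariate), with Benjamini-Hochberg adjustment over all 18769 probe sets and a threshold of 0.05, and the fits were tested on simulated data. Differences are the group named first minus the other, with SE from the moderated variance. Figures were drawn with matplotlib 3.10.9 in Python 3.11.15. The number of arrays limits the precision. The members and lists were chosen with earlier results of these data known. The listed genes named were, per list, those called with the largest changes (up to 2), or the brightest where none was called. Of 40 marker genes 33 were measured. Alternatives were a threshold of 0.01, any probe set of a gene, removal of probe sets under the 0.5 quantile of brightness, trend and robust eBayes, 1 fit of all 20 arrays, a repeated quantile normalization, the replicate number as a block, the nearest controls only, the line as a random block, and each array left out. The mean of Sens GOF replicates 1 and 2, and the change of each cross from its driver, were added after seeing the data.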

Additional observations from a re-analysis of the deposited data

How the results depend on the processing

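The counts of the 44 listed genes called were 2 in Ato GOF, 2 in Gal4/7 x UASato, 0 in atoGal4 x UASato, 23 in Ato LOF and 4 in Sens GOF, each against the controls, 0 between the Ato GOF lines and 6 in Sens GOF against atoGal4 x UASato. At an adjusted p under 0.01 they were 1 in Ato GOF, 11 in Ato LOF, 0 in Sens GOF and 1 in Sens GOF against atoGal4 x UASato. With any probe set of a gene they were 4 in Ato GOF, 4 in Gal4/7 x UASato and 1 between the Ato GOF lines, and with the nearest controls 1 in Ato GOF, 1 in Ato LOF and 1 in Sens GOF. One fit of all 20 arrays gave 9 in Sens GOF, and the line as a random block gave 1. Sens GOF against atoGal4 x UASato gave 12 without dim probe sets and 10 with trend and robust eBayes, which gave 2 between the Ato GOF lines. With Sens GOF replicates 1 and 2 averaged the counts were 0 against controls and 1 against atoGal4 x UASato. Leaving out 1 array gave 1 to 4 in Ato GOF, 1 to 5 in Gal4/7 x UASato, 11 to 27 in Ato LOF, 0 to 9 in Sens GOF and 1 to 12 in Sens GOF against atoGal4 x UASato. Of the 5 axon genes, 2 were called in Ato GOF, 1 at an adjusted p under 0.01, 4 in the fit of all 20 arrays and 1 to 2 with an array left out. That fit gave 1 in atoGal4 x UASato and 1 in Sens GOF, where any probe set of a gene also gave 1, and in Ato LOF the nearest controls gave 0 of 4. The dim *Ank2* probe set gave -0.069 between the Ato GOF lines, opposite in sign to the brightest. The cause of these changes was not tested.

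The samples share only a replicate number: deviations of same-numbered samples correlated between -0.399 and 0.525, so they were not treated as paired. For Gal4/7 x UASato and the controls, 7 of 8 such pairs lay over 0.1 (0.0865 to 0.525). With the replicate number as a block, the listed genes called were 1 in Ato GOF, 0 in Gal4/7 x UASato (*unc-104* at a limma adjusted p of 0.0600), 0 in Sens GOF and 2 in Sens GOF against atoGal4 x UASato.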
